A study of Ovis aries with 10 samples.

Results

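Chaperones, folding enzymes, stress sensors and degradation genes of the endoplasmic reticulum were compared between the follicular and the luteal phase in the mediobasal hypothalamus of the ewe. The 36 genes were chosen by symbol, and all 36 were found among the 33775 genes of the count table, each in 1 row. By role they comprised 20 folding genes (11 chaperones and co-factors and 9 isomerases), 7 sensors and transcription factors, and 9 genes of degradation and translocation. The mediobasal hypothalamus is the ventral part of the hypothalamus with the arcuate nucleus and the median eminence. Tissue came from 20 adult Ile-de-France ewes, 10 in the follicular phase, when oestradiol rises before ovulation, and 10 in the luteal phase, when the corpus luteum secretes progesterone. Within a phase the RNA of 2 ewes, drawn at random, was mixed in equal amounts, which gave 5 libraries per phase, so a library value is an average over 2 animals. The title of the series asks about the action of progesterone, whereas phases of a cycle differ in other hormones too.

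The endoplasmic reticulum is where secreted and membrane proteins enter the secretory pathway, fold and gain disulphide bonds. HSPA5 and HSP90B1 hold unfolded chains, calreticulin and calnexin retain glycoproteins by their sugars, and protein disulphide isomerases shuffle bonds between cysteines. When unfolded protein builds up, the sensors ERN1 (IRE1), EIF2AK3 (PERK) and ATF6 set off the unfolded protein response, which slows translation and raises transcription of chaperones and of genes that export misfolded proteins for degradation. The response itself runs through splicing of XBP1 mRNA, phosphorylation and cleavage of ATF6, none of which gene counts measure. Peptide-secreting neurons of the hypothalamus make prohormones in bulk and carry much of this machinery.

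Library totals ran from 20644992 to 43193449 reads, with a mean of 28179000 in follicular and 37596000 in luteal libraries (two-sided exact permutation test, p = 0.111, where 0.00794 is the smallest p possible; adjusted p = 0.159 over 2 library measures). A set of 20 ribosomal protein genes took 1.25% to 2.35% of the reads in follicular and 1.29% to 1.86% in luteal libraries (p = 0.159 by the same exact test, adjusted p = 0.159). All 20 averaged lower in luteal libraries, with a median log2 fold change of -0.49. Follicular 1 and 3 had the highest shares, 2.35% each, and the fewest reads, and follicular 5 had the lowest share. Luteal 4 stood apart from the other luteal libraries in many of the folding genes, as given with each result. Of 5 arcuate and ventromedial markers all 5 were detected, with a summed level of 844 to 1782 CPM in follicular and 772 to 1437 CPM in luteal libraries. Follicular 5 and luteal 5 had the lowest sum of their phase. Of these markers 3 averaged lower and 2 higher in luteal libraries (median log2 fold change -0.23). CPM is the number of reads of a gene per 1000000 reads of the scaled library total. It is not corrected for transcript length, so levels are compared here between libraries and not between genes.

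Most of the folding genes averaged lower in the luteal phase, while sensors and degradation genes were divided. Of the 20 folding genes 16 were lower in luteal libraries, with a median log2 fold change of luteal over follicular of -0.29. Of the 7 sensors and transcription factors 4 were lower (median -0.06), and of the 9 degradation and translocation genes 5 were lower (median -0.09). Both translocation genes, SEC61A1 (-0.18) and SEC61B (-0.23), were among those 5. With degradation genes alone the middle value is that of DERL1 (0.19), so the sign of this median depends on the translocation genes. Among all 18276 genes tested 48.5% were lower and the median was 0.011. The 20 ribosomal protein genes, lower by a larger median (-0.49) than the folding genes, moved in the same direction, and their part in this result was not tested. Without luteal 5 the median of the sensors was -0.15, and the folding median minus the sensor median was -0.075, where with all libraries it was -0.23. Within the folding genes the 11 chaperones and co-factors had a median of -0.46, and the 9 isomerases had one of -0.09. In whole tissue a lower level can come from fewer cells of a type or from less RNA per cell, and the 2 cannot be told apart.

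In the edgeR quasi-likelihood test, adjusted over all 18276 genes, the 36 genes had adjusted p of 0.426 to 0.921 and none was called at 0.05. No other gene was called either, so the share called was 0%, and limma-voom also called 0 genes. At an unadjusted edgeR p under 0.05, 9 of the 36 genes were lower in luteal libraries, 8 of them folding genes, against 7.12% of all genes tested. In the other direction it was 1 gene, EIF2AK3, against 4.27% of all genes. The 9 were HSP90B1, HSPA5, DNAJB11, SDF2L1, MANF, CALR, CRELD2, PDIA4 and DERL2. Without luteal 4 the 10 genes at unadjusted p under 0.05 became 16, all of them lower in luteal libraries, and without follicular 5 they became 20, 12 lower and 8 higher. The 1 gene higher in luteal libraries became 0 without any one of follicular 1 to 4 or luteal 2 to 5, 3 without luteal 1 and 8 without follicular 5. Over all genes the count was 2083 (1302 lower), with 2808 (1836 lower) without luteal 4 and 3069 (1897 lower) without luteal 1. It ran from 958 (516 lower) without follicular 3 to 6217 (2951 lower) of 18201 tested without follicular 5. The remaining genes of each count were higher. Thus without follicular 5 many genes outside the 36 were also higher at this threshold. DESeq2 called 0.192% of all genes and 1 of the 36, HSP90B1 (adjusted p = 0.00727). The plot of fold changes by role shows this division.

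**Figure D1:**
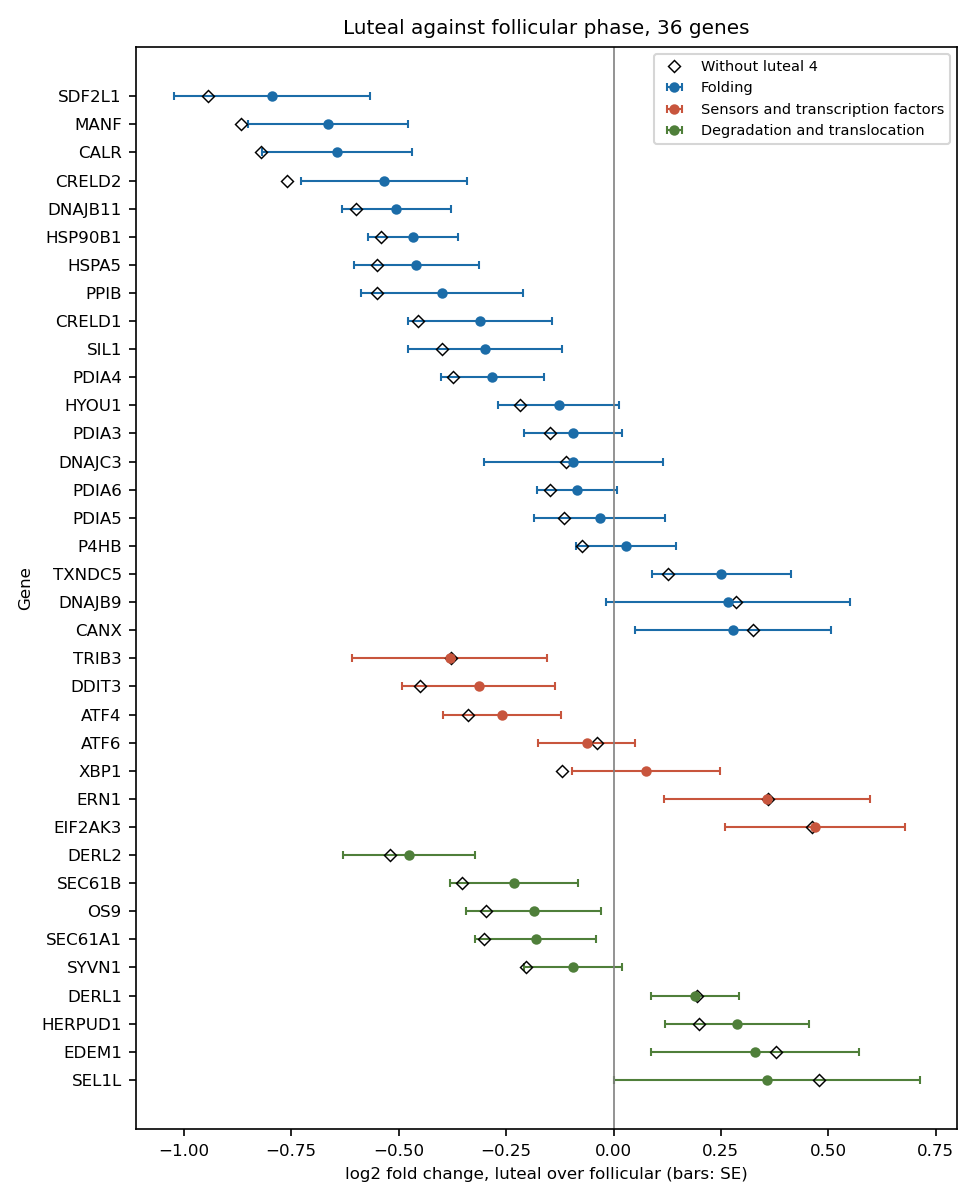
Log2 fold change of luteal over follicular for the 36 genes by role, with bars of 1 SE from edgeR (n = 5 libraries per phase). Open diamonds give the value without luteal 4. Of the 20 folding genes 16 lie left of 0, and the sensors and the degradation genes lie on both sides.

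HSP90B1, the HSP90 chaperone of the endoplasmic reticulum, showed the clearest separation of the phases. Its level was 1082, 1100.1, 1168, 1132 and 1064 CPM in follicular libraries 1 to 5 and 738, 739, 729.9, 966 and 840.4 CPM in luteal libraries 1 to 5. Every luteal library lay under every follicular one, and the follicular libraries spanned only 1.10-fold from lowest to highest. The mean was 1109 ± 41.4 CPM over the follicular and 803 ± 102 CPM over the luteal libraries (SD, n = 5), which is 27.6% lower (log2 fold change -0.47, SE 0.10; edgeR adjusted p = 0.426). HSP90B1 was the single gene of the 36 whose phases did not overlap in this direction, and 0.514% of all genes tested separated that way. None of the 36 separated with luteal higher, against 0.607% of all genes. Over the 20 alternative settings its log2 fold change stayed between -0.54 and -0.43.

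HSPA5 (BiP), the HSP70 chaperone that also holds the sensors inactive, followed with an overlap of the phases. It had 898, 1316, 1035, 1106 and 1189 CPM in follicular and 648, 764, 712, 1006 and 903 CPM in luteal libraries. Luteal 4 and luteal 5 lay above follicular 1, and the other luteal libraries lay under all follicular ones. The mean was 1109 ± 157 CPM over the follicular and 807 ± 146 CPM over the luteal libraries (SD, n = 5; log2 fold change -0.46, SE 0.15; edgeR adjusted p = 0.426).

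The co-factors of HSPA5 averaged lower in luteal libraries, by unequal amounts, with the exception of DNAJB9. DNAJB11, a J-domain protein that delivers unfolded chains to HSPA5, had 66.5, 79.7, 76.9, 73.6 and 57.7 CPM in follicular and 44.2, 46.7, 43.8, 62.5 and 52.5 CPM in luteal libraries. Luteal 4 was the single luteal library inside the follicular range. The luteal mean was 29.6% lower (log2 fold change -0.51, SE 0.13), close in size to that of HSPA5. SDF2L1, which binds HSPA5 and DNAJB11 in 1 complex, had 56.0, 39.0, 56.6, 53.9 and 32.5 CPM in follicular and 34.6, 25.9, 19.7, 38.1 and 18.6 CPM in luteal libraries and showed the lowest log2 fold change of the 36 (-0.80, SE 0.23). Fitted with the first principal component as a further term, described with calnexin, it was -0.40, and HSPA5 had the lowest value (-0.55). Follicular 5 lay under luteal 1 and luteal 4, and the other follicular libraries lay above all luteal ones. HYOU1, a large HSP70-like exchange factor (-0.13), SIL1, the other nucleotide exchange factor (-0.30), and DNAJC3, a J-domain protein that also inhibits EIF2AK3 (-0.09), had log2 fold changes nearer 0. DNAJB9, a J-domain protein that recruits HSPA5 to ERN1, went the other way, with means of 17.1 ± 7.85 CPM over the follicular and 20.6 ± 5.19 CPM over the luteal libraries (SD, n = 5; log2 fold change 0.27, SE 0.28). Its follicular values were spread 2.81-fold, from 10.4 CPM in follicular 3 to 29.3 CPM in follicular 5. That spread is wider than the difference between phases, and without follicular 5 the log2 fold change was 0.56. The sign of DNAJB9 turned without follicular 1 and 3 together (-0.034) and with the first principal component in the fit (-0.18). These 6 genes had edgeR adjusted p between 0.426 and 0.823.

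**Figure D2:**
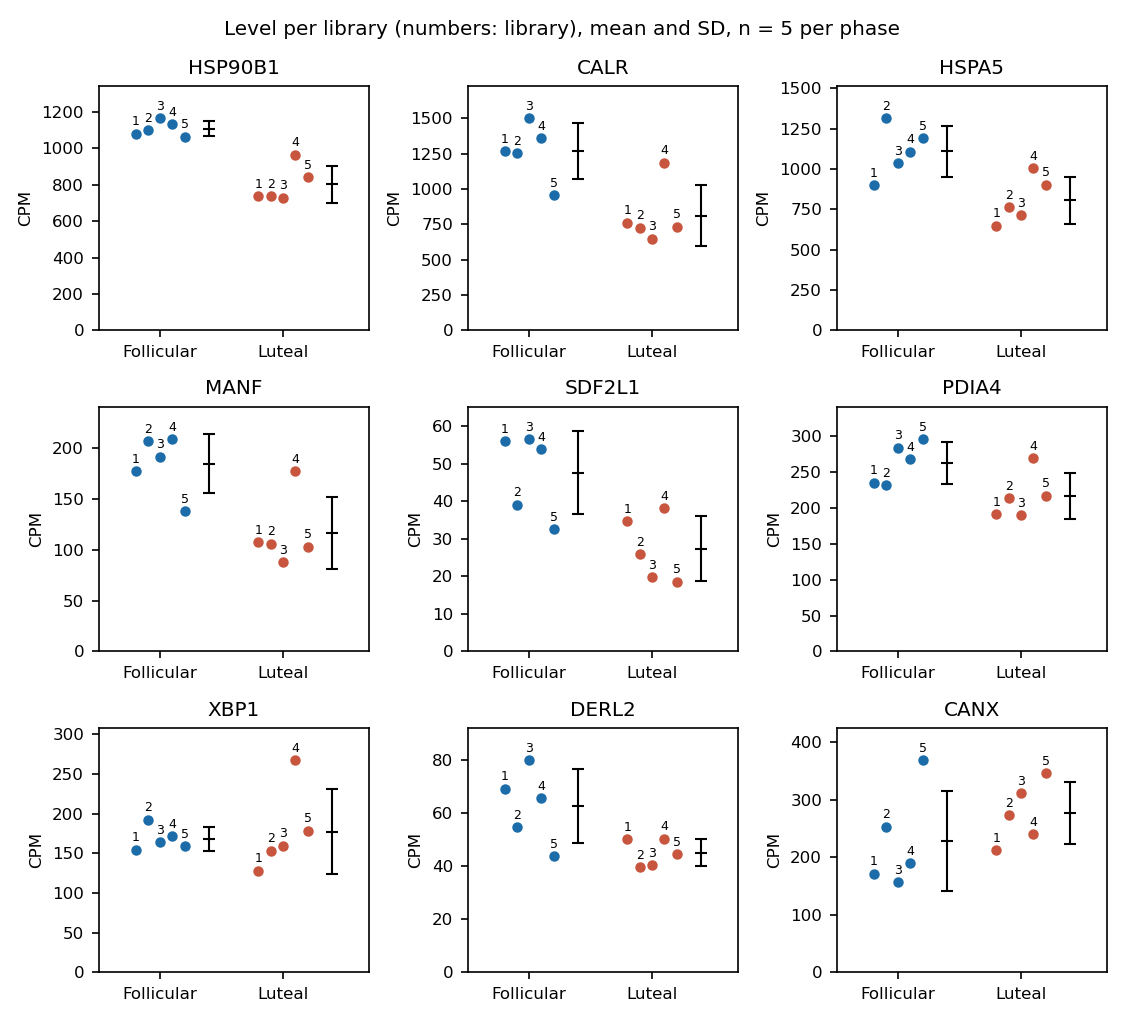
Level in CPM (linear axis from 0) of 9 genes in each library, numbered by library, with the mean and SD of each phase (n = 5). The 5 luteal points of HSP90B1 lie below all 5 follicular points, and luteal 4 is the highest luteal point in all panels but CANX.

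Calreticulin and calnexin, the soluble and the membrane-bound lectin chaperone of the same glycoprotein cycle, averaged in opposite directions. CALR had 1269.6, 1253, 1504, 1358 and 959 CPM in follicular and 763, 727, 648, 1188 and 733 CPM in luteal libraries. All luteal libraries but luteal 4 lay under the lowest follicular library, follicular 5. The mean was 1269 ± 199.8 and 812 ± 214 CPM (SD, n = 5; log2 fold change -0.64, SE 0.18). CANX had 171, 253, 158, 189.5 and 369.6 CPM in follicular and 213, 274, 311, 240.2 and 346 CPM in luteal libraries. Its highest and lowest values were both follicular, and its means of 228 ± 87.1 and 277 ± 53.5 CPM differed by less than the spread of the follicular libraries (SD, n = 5; log2 fold change 0.28, SE 0.23; edgeR adjusted p = 0.531). Without follicular 5 the log2 fold change of CANX was 0.52. The first principal component held 51.0% of the variance between libraries and also differed by phase. Its mean was -20.9 in follicular and 20.9 in luteal libraries. A fit that includes the component can therefore shrink, enlarge or reverse a difference between phases. Added to the fit as a covariate, the component gave -0.10 for CANX, a turn of sign, and -0.41 for CALR, a smaller difference. For DNAJC3 the difference was larger with the component (-0.40) than without it (-0.09).

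MANF, a small calcium-dependent partner of HSPA5 that is also secreted as a neurotrophic factor, had 177, 207, 191, 209 and 138 CPM in follicular libraries. In luteal libraries it had 108, 106, 87.8, 177 and 103 CPM. Luteal 1, 2, 3 and 5 lay under every follicular library, and luteal 4 lay among them. The luteal mean was 36.9% lower (log2 fold change -0.66, SE 0.19). Without luteal 4 the log2 fold change was -0.87 for MANF, -0.82 for CALR and -0.55 for HSPA5, and their edgeR adjusted p lay between 0.286 and 0.322.

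Among the isomerases CRELD2, PPIB, CRELD1 and PDIA4 averaged lower by the most, TXNDC5 averaged higher, and the others differed little. CRELD2, a secreted disulphide isomerase induced by endoplasmic reticulum stress, had 118, 123, 128, 143 and 112 CPM in follicular and 90.4, 76.1, 63.6, 136 and 64.7 CPM in luteal libraries. Luteal 4 again lay inside the follicular range while the other luteal libraries lay under it (mean 125 ± 11.9 and 86.3 ± 30.1 CPM, SD, n = 5; log2 fold change -0.53, SE 0.19). CRELD1, its membrane-bound relative, had 229 to 300.4 CPM in follicular and 164 to 299.9 CPM in luteal libraries (-0.31, SE 0.17). PDIA4, an isomerase with several thioredoxin domains, had 235, 231, 284, 268 and 296 CPM in follicular and 191, 214, 189.6, 269 and 217 CPM in luteal libraries (-0.28, SE 0.12 for the log2 fold change). PPIB, a prolyl isomerase of the cyclophilin family, had 407 to 662 CPM in follicular and 332 to 612 CPM in luteal libraries (-0.40, SE 0.19). With the first component as a covariate PPIB stood at -0.078, CRELD1 at -0.11, CRELD2 at -0.35 and PDIA4 at -0.29.

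The classical disulphide isomerases were nearly level. The log2 fold change was -0.09, SE 0.11 for PDIA3, the isomerase that works with calnexin and calreticulin, and -0.09, SE 0.09 for PDIA6, which attenuates ERN1. It was -0.03, SE 0.15 for PDIA5, which acts on ATF6, and 0.03, SE 0.12 for P4HB, the founding protein disulphide isomerase and a subunit of the collagen hydroxylase. TXNDC5, a thioredoxin-domain isomerase, averaged higher in luteal libraries (84.8 ± 18.4 and 101 ± 19.2 CPM, SD, n = 5; log2 fold change 0.25, SE 0.16). Its luteal mean was raised by luteal 4, at 134 CPM, and without that library the log2 fold change was 0.13. For P4HB luteal 4 had 414 CPM against 290.6 to 319.6 CPM in the other luteal libraries, and without it the sign turned (-0.07). The sign of PDIA5 also turned, to 0.09 without follicular 1 and 3 together and 0.22 with the first component. Over the 9 isomerases edgeR adjusted p ran from 0.426 to 0.921.

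Of the 3 sensors, the 2 kinases averaged higher in luteal libraries and ATF6 did not. EIF2AK3, the kinase PERK that phosphorylates the translation factor eIF2 alpha, had 14.9, 19.8, 14.6, 16.4 and 27.9 CPM in follicular and 17.1, 25.1, 29.2, 26.4 and 32.1 CPM in luteal libraries. The phases overlapped through follicular 5, high for its phase, and luteal 1, low for its phase. The mean was 18.7 ± 5.52 CPM over the follicular and 26.0 ± 5.66 CPM over the luteal libraries (SD, n = 5; log2 fold change 0.47, SE 0.21; edgeR adjusted p = 0.426). ERN1, the kinase and nuclease IRE1 that splices XBP1 mRNA, had 17.8, 24.0, 15.4, 22.2 and 36.1 CPM in follicular and 18.7, 29.2, 31.5, 29.3 and 39.7 CPM in luteal libraries, with the libraries of each phase in the same order as for EIF2AK3 (0.36, SE 0.24). With the first component as a covariate the values were 0.14 for EIF2AK3 and -0.03 for ERN1, so the sign of ERN1 was not kept. Without follicular 5 ERN1 stood at 0.58. ATF6, which is cut in the Golgi to free a transcription factor, had 42.3 to 56.6 CPM in follicular and 43.5 to 57.9 CPM in luteal libraries (-0.06, SE 0.11).

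Downstream of the sensors, ATF4, DDIT3 and TRIB3 averaged lower in luteal libraries, and XBP1 was nearly level. XBP1, the target of ERN1, had 155, 192, 164, 172 and 159 CPM in follicular and 128, 153, 159, 268 and 178 CPM in luteal libraries. Luteal 4 was the highest of all 10 and luteal 1 the lowest, and the log2 fold change of 0.08, SE 0.17 became -0.12 without luteal 4. ATF4, translated when eIF2 alpha is phosphorylated, had 264 to 412 CPM in follicular and 264 to 372 CPM in luteal libraries (-0.26, SE 0.14). DDIT3 (CHOP), a target of ATF4, had 18.7 to 33.2 and 18.8 to 31.3 CPM (-0.31, SE 0.18), and TRIB3, a pseudokinase induced by both, 0.827 to 1.33 and 0.569 to 0.975 CPM (-0.38, SE 0.23), or 21 to 40 reads per library. In each of these 3 genes follicular 5 was the lowest follicular library. With the first component as a covariate ATF4 and DDIT3 stood at -0.02 and -0.02. The row named DDIT3 carries an identifier that assembly ARS-UI_Ramb_v3.0 gives to a longer gene around a separate DDIT3 gene, so its reads may cover more than DDIT3. The edgeR adjusted p of the 7 genes ran from 0.426 to 0.824.

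Genes of degradation and translocation were also divided. DERL2, a derlin of the channel through which misfolded proteins leave the lumen, had 69.4, 54.8, 80.2, 65.9 and 43.8 CPM in follicular and 50.3, 39.8, 40.5, 50.4 and 44.6 CPM in luteal libraries. Follicular 5 lay among the luteal libraries and the other follicular values lay above all luteal ones (mean 62.8 ± 13.9 and 45.1 ± 5.15 CPM, SD, n = 5; log2 fold change -0.48, SE 0.15). With the first component as a covariate it was -0.20. Its relative DERL1 averaged higher, with 58.6 to 76.4 CPM in follicular and 63.5 to 79.5 CPM in luteal libraries (0.19, SE 0.10). Thus 2 derlins of the same complex had log2 fold changes of opposite sign. With the first component as a covariate, however, DERL1 stood near 0 (0.048). HERPUD1, a stress-induced scaffold of the degradation complex, had 69.8, 104, 80.2, 93.0 and 105 CPM in follicular and 74.2, 102, 112, 136 and 127 CPM in luteal libraries (0.29, SE 0.17). Luteal 3, 4 and 5 lay above all follicular libraries, and luteal 1 was low for its phase.

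SEL1L and SYVN1 are the adaptor and the ubiquitin ligase of 1 complex. SEL1L had 23.4, 32.2, 18.1, 22.6 and 63.5 CPM in follicular and 24.8, 39.1, 52.9, 26.6 and 62.2 CPM in luteal libraries. Its spread was the widest of the 36 in both phases, 3.51-fold in follicular and 2.51-fold in luteal libraries, and the log2 fold change of 0.36, SE 0.36 was about equal to its error. It was 0.16 without luteal 5, 0.77 without follicular 5 and -0.26 with the first component as a covariate. SYVN1 was nearly level and spanned 126 to 143 CPM in follicular and 111 to 162 CPM in luteal libraries (-0.09, SE 0.11). EDEM1, a mannosidase-like factor that marks glycoproteins for disposal, averaged 13.5 ± 5.71 and 17.1 ± 2.87 CPM (SD, n = 5; 0.33, SE 0.24), with 0.63 without follicular 5 and 0.045 with the first component. OS9, the lectin that reads its mark, averaged 429 ± 54.3 and 378 ± 85.2 CPM (-0.19, SE 0.16). SEC61A1 and SEC61B, the pore and a small subunit of the translocation channel, were both slightly lower (-0.18, SE 0.14 and -0.23, SE 0.15). The edgeR adjusted p of the 9 genes ran from 0.426 to 0.658.

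**Figure D3:**
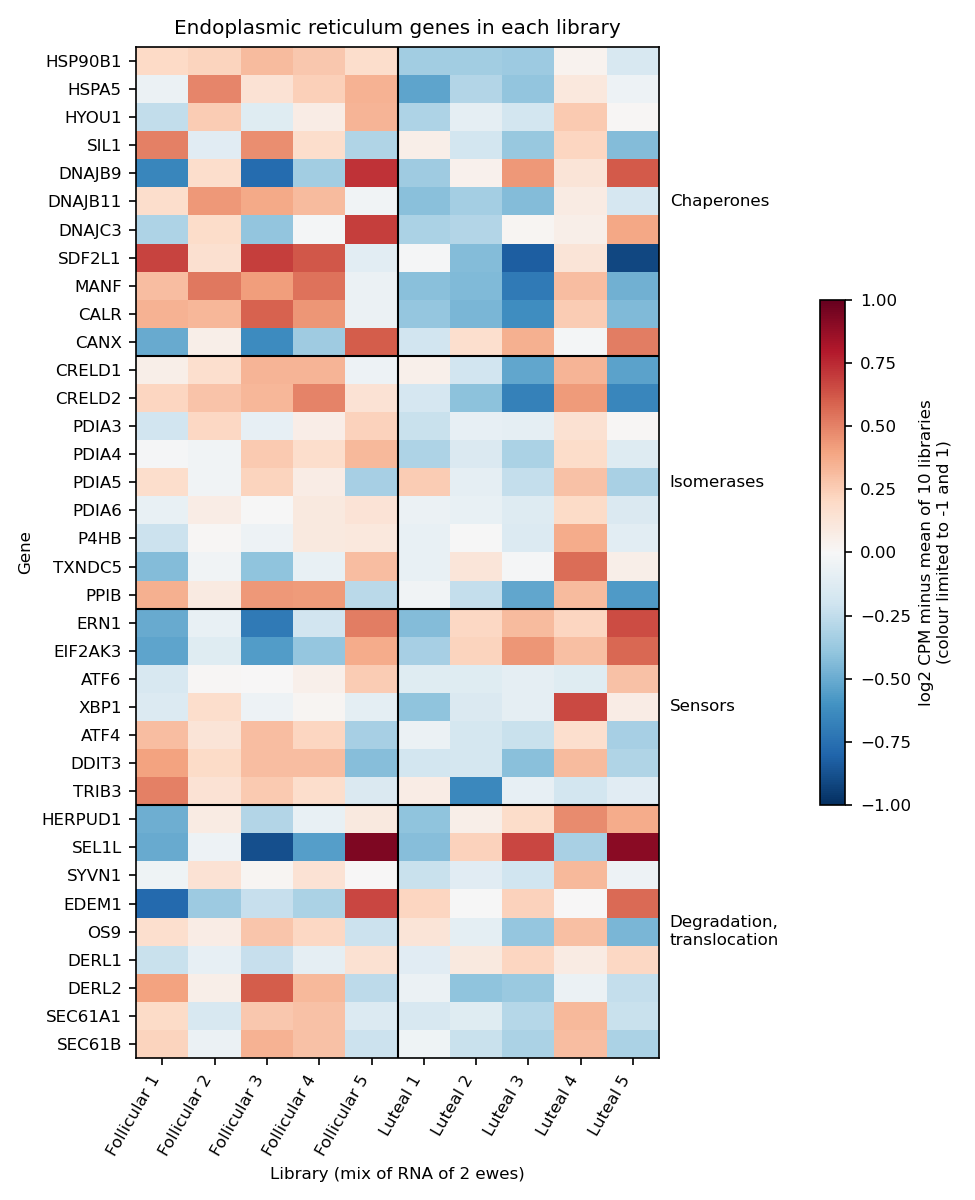
Log2 CPM of each of the 36 genes in each library, minus the gene's mean over the 10 libraries, with genes grouped by role and libraries by phase. Many folding genes are low in luteal 1, 2, 3 and 5, and CANX, DNAJB9, SEL1L, ERN1 and EIF2AK3 are high in follicular 5 and luteal 5 and low in follicular 1 and 3.

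The genes varied between libraries along 2 patterns. In the first, luteal 4 was high. It held the highest luteal value of 26 of the 36 genes and of 17 of the 20 folding genes, where it held that of 23.6% of all genes tested. Averaged over the 20 folding genes, the log2 level relative to the mean of all libraries was 0.22 in luteal 4, -0.29 to -0.17 in the other luteal libraries and 0.02 to 0.18 in follicular libraries. The sensors (0.19) and degradation genes (0.16) were also highest in luteal 4. The plot of group means by library shows luteal 4 above all other libraries in each of the 3 groups. With that library left out the median log2 fold change was -0.39 for folding genes, -0.12 for sensors and -0.20 for degradation genes.

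**Figure D4:**
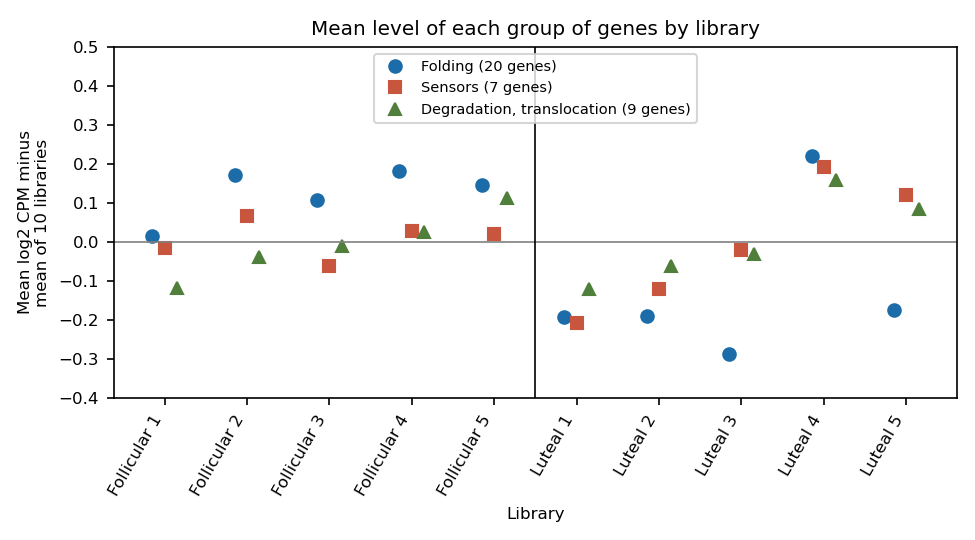
Mean over the genes of each group of log2 CPM relative to the mean of the 10 libraries, by library. The folding genes lie at -0.29 to -0.17 in the luteal libraries other than luteal 4, which lies at 0.22.

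VGF, the precursor of several secreted neuropeptides, was high in the same library. VGF, OXT and AVP were picked with earlier results of these data known. VGF is therefore a selected example. VGF had 1034, 1493, 1169.9, 1336 and 1389 CPM in follicular and 446, 478, 403, 1121 and 369 CPM in luteal libraries. OXT and AVP, the precursors of oxytocin and vasopressin, also averaged lower in luteal libraries but were not high in luteal 4. OXT had 104, 45.0, 129.7, 105 and 40.3 CPM in follicular and 33.9, 43.1, 21.8, 24.0 and 7.20 CPM in luteal libraries, and AVP had 1358, 647, 1085, 2236 and 219 CPM and 523, 622, 222, 238 and 47.0 CPM. The log2 fold change was -1.19, SE 0.28 for VGF, -1.70, SE 0.45 for OXT and -1.75, SE 0.66 for AVP. The edgeR adjusted p was 0.426 for each. The part of these precursors in the levels of the folding genes was not tested.

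In the second pattern follicular 5 was set against follicular 1 and 3. Follicular 5 was the highest or the lowest follicular library for 32 of the 36 genes, as it was for 70.4% of all genes tested. It was highest for 16 genes, among them CANX, DNAJB9, DNAJC3, ERN1, EIF2AK3, SEL1L, EDEM1 and DERL1. It was lowest for 16, among them SDF2L1, MANF, CALR, PPIB, ATF4, DDIT3, DERL2 and OS9. Follicular 5 had the lowest ribosomal protein share (1.25%), and follicular 1 and 3 had the highest. On the first principal component follicular 5 lay at 48.1, follicular 1 at -53.2 and follicular 3 at -61.6, and luteal 5 (58.2) and luteal 3 (47.7) lay on the side of follicular 5. Phase and component overlap and cannot be fully told apart. In the fit with both, the medians were -0.22 for folding genes, -0.02 for sensors and 0.0077 for degradation genes. With phase as the only term they were -0.29, -0.06 and -0.09.

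Markers of other cells were read beside these values. Plasma cells, whose endoplasmic reticulum is rich in the same chaperones, had 3 of 3 markers in the table and a summed level of 2.12 to 48.5 CPM in follicular and 1.91 to 21.1 CPM in luteal libraries, highest in follicular 5 and luteal 5. Both plasma cell markers that were tested averaged lower in luteal libraries (median log2 fold change -1.01). Apart from follicular 5 and luteal 5 the sums were low, 2.12 to 8.54 CPM in follicular and 1.91 to 3.90 CPM in luteal libraries. Follicular 5 alone therefore weighs heavily in this difference. Luteal 4 had the lowest sum, 1.91 CPM, close to the 2.12 to 2.56 CPM of follicular 1, 3 and 4. Choroid plexus markers (7 of 7) summed to 20.6 to 57.2 CPM in follicular and 34.4 to 115.5 CPM in luteal libraries, the highest in luteal 4, and the 6 that were tested all averaged higher in luteal libraries (median 0.78). Pituitary and pars tuberalis markers (4 of 5) summed to 2664 to 4250.3 CPM in follicular and 1923 to 4184 CPM in luteal libraries. Neuron markers (7 of 7) summed to 875 to 1032 CPM in follicular and 731 to 1043 CPM in luteal libraries, the lowest in luteal 4. Astrocyte markers (6 of 6) summed to 3704 to 4842 and 2766 to 4639 CPM, and oligodendrocyte markers (6 of 6) to 826 to 1399 and 509 to 1279.9 CPM. All 6 oligodendrocyte markers averaged lower in luteal libraries (median -0.36, beyond that of the folding genes), against 3 of 6 astrocyte markers (-0.03), 3 of 7 neuron markers (0.0011), 4 of 6 microglia markers (-0.09), 1 of 5 endothelium markers (0.18) and 3 of 4 pituitary markers (-0.08). Microglia (6 of 6) and endothelium markers (5 of 5) ranged from 285 to 433 and 146 to 218 CPM in follicular and from 299.9 to 339 and 159 to 208 CPM in luteal libraries. None of the markers in the table was at 0 in all libraries, and the part of these cells in the results was not tested.

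Beyond the 36, 103 other genes of the endoplasmic reticulum were read in 5 lists, of which 102 were tested. Adjusted over all genes tested, edgeR called 0 of them (adjusted p between 0.426 and 0.992), and so did DESeq2, where the smallest adjusted p was 0.0833, for OSTC. At an unadjusted p under 0.05, 17 were lower and 3 were higher in luteal libraries, against the 7.12% and 4.27% of all genes given above. The median log2 fold change was -0.06, with 62 lower and 40 higher. Translocation and retrieval genes had 15 of 20 lower (median -0.14), with SEC11A and SEC11C, the catalytic subunits of signal peptidase, at -0.28, SE 0.10 and -0.45, SE 0.16. Degradation genes had 13 of 19 lower (median -0.11), with SELENOS, a selenoprotein of the export complex, at -0.50, SE 0.17 and HERPUD2, a relative of HERPUD1, at 0.51, SE 0.21.

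Glycan quality control and oligosaccharide transfer had 9 of 15 lower (median -0.14). OSTC, a subunit of the oligosaccharyltransferase, spanned 43.6 to 48.9 CPM in follicular and 33.8 to 40.9 CPM in luteal libraries, without overlap (log2 fold change -0.29, SE 0.09; edgeR adjusted p = 0.426). LMAN1, a cargo lectin between the endoplasmic reticulum and the Golgi, was at 0.20, SE 0.09. Oxidoreductases and folding helpers had 16 of 26 lower (median -0.09), with TXNDC11 at -0.41, SE 0.15 and CNPY2 at -0.59, SE 0.24. Signalling and stress target genes had 9 of 22 lower and a median of 0.07. In that list CREB3, a membrane-bound transcription factor, was at -0.39, SE 0.16, and ATF3, a stress-induced transcription factor that is also an immediate early gene, was at 0.70, SE 0.33, with 2.86 to 7.73 CPM in follicular and 4.70 to 13.8 CPM in luteal libraries.

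**Figure D5:**
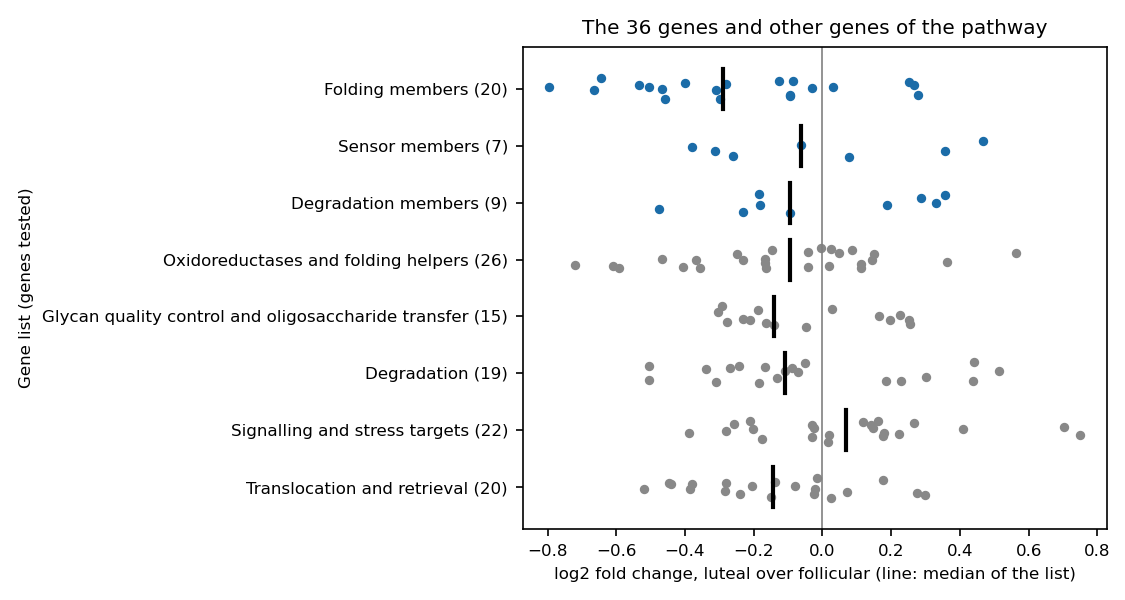
Log2 fold change of luteal over follicular for the 36 genes in 3 groups (blue) and for the 5 lists of other genes of the endoplasmic reticulum (grey), with the number tested in parentheses and the median as a line. The folding genes have the lowest median, -0.29, and the list of signalling and stress targets has the one median above 0, 0.07.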

How the data were processed

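TriReagent was used for the RNA and a TruSeq stranded mRNA kit for the libraries, per the labels' protocols. Tools named in the submitters' processing notes are featureCounts 2.0.0, SAMtools 1.9, Bowtie2 2.3.5.1, TopHat2 2.1.1, FastQC and bcl2fastq 2.20. The build, strand setting and treatment of shared reads are not given in the sources used here, and no coordinates are printed. In assembly ARS-UI_Ramb_v3.0, 12 of the genes overlap another gene, so their counts are uncertain: HYOU1, SIL1, CANX, PDIA3, PDIA6, PPIB, ERN1, ATF6, ATF4, DDIT3, SYVN1 and DERL1. The authors deposited raw whole-number counts per gene. All 36 identifiers matched that assembly, 35 with the same symbol; it was used for names and neighbouring genes only. Sequences were not used here.

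Counts were tested in R 4.3.3 with edgeR 4.0.16 (filterByExpr with minimum count 10 and minimum total 15, TMM, quasi-likelihood F-test, two-sided, phase as the only term, all 10 libraries), with Benjamini-Hochberg adjustment over 18276 genes and a threshold of 0.05. The SE is the log2 fold change divided by the square root of F. Log2 CPM used a prior count of 2. Alternatives were RLE and upper-quartile scaling, other filters, the replicate number as a block, libraries left out, the first principal component as a covariate, limma-voom (3.58.1), DESeq2 1.42.0 and robust dispersion. No 2 libraries agreed within sampling noise (chi-square per degree of freedom at least 13.6). The genes and lists were chosen with earlier results of these data known. All 36 genes are named, and of each other list the 2 genes with the smallest p. VGF, OXT and AVP, in none of the lists, were named from those earlier results.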

Additional observations from a re-analysis of the deposited data

Results flagged for a closer look

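Dixon's test for 5 samples was applied to the highest and the lowest library of each phase, as the distance to its neighbour over the range of the 5, with a 95% limit of 0.71. This was met in 15 of 132 groups of libraries, and chance gives about 1 in 20, or 6.6. The groups are not independent, since they share libraries.

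Luteal 4 was the highest luteal library in 10 of the 15. Its level was 177 against at most 108 CPM for MANF (ratio 0.779), 1188 against at most 763 CPM for CALR (0.787), 417 against at most 349.8 CPM for PDIA6 (0.781), 414 against at most 319.6 CPM for P4HB (0.765) and 134 against at most 99.0 CPM for TXNDC5 (0.737). It was 31.3 against at most 22.2 CPM for DDIT3 (0.724), 162 against at most 125 CPM for SYVN1 (0.730), 393 against at most 289.8 CPM for SEC61A1 (0.767) and 1121 against at most 478 CPM for VGF (0.855). The mean relative log2 level of the 20 folding genes was 0.22 in luteal 4 and at most -0.17 in the other luteal libraries (0.780).

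Luteal 5 was highest for ATF6, at 57.9 against at most 44.4 CPM (0.937), and follicular 5 for EDEM1, at 23.4 against at most 12.5 CPM (0.736). The summed plasma cell markers were highest in follicular 5 (48.5 against at most 8.54 CPM, 0.861) and in luteal 5 (21.1 against at most 3.90 CPM, 0.896). The summed arcuate and ventromedial markers were lowest in luteal 5, at 772 against at least 1335 CPM (0.847).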

How the results depend on the processing

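Over the 20 alternatives the number of the 36 genes lower in luteal libraries stayed between 24 and 27, and the median log2 fold change of the folding genes between -0.39 and -0.22. Leaving out each library gave 0 to 1 called genes over all genes, the 1 being VGF without luteal 4, and DESeq2 called 35 genes, of which 1 was among the 36. The median of the degradation genes was 0.0077 with the first component as a covariate and ran from -0.20 to -0.050 with each library left out. The median of the sensors was 0.0045 with a filter of 1 CPM in 5 libraries, which removed TRIB3, and -0.15 without luteal 5. With the component as a covariate 27 of the 36 genes moved by over 1.5 times, 14 toward 0, 4 away from it and 9 with a turn of sign, and without follicular 5 it was 11, with 3, 7 and 1. The number was 25 without follicular 1 and 3 together, 12 without luteal 4 and 8 or fewer under the other alternatives. Of 719 values of single genes 20 changed sign, in 12 genes. With the component as a covariate they were SIL1 0.037, DNAJB9 -0.18, CANX -0.10, PDIA5 0.22, ERN1 -0.028, SEL1L -0.26, OS9 0.053, SEC61A1 0.0060 and SEC61B 0.0077. Without follicular 1 and 3 together they were DNAJB9 -0.034, PDIA5 0.092 and P4HB -0.043. With each library left out PDIA5 ran from -0.12 to 0.042, P4HB from -0.073 to 0.072, DNAJC3 from -0.21 to 0.11 and XBP1 from -0.12 to 0.17.

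The replicate numbers share no stated origin, since ewes were mixed at random. The deviations of same-numbered libraries from their phase means correlated from -0.33 to 0.63, and 1 of 5 luteal libraries correlated best with its own number, so they were not treated as pairs. With the replicate block 0 genes were called over all genes and 0 of the 36, and the median of the folding genes was -0.29. At an unadjusted p under 0.05 the block gave 17 of the 36 genes, against 10 without it, and 4512 of all genes, against 2083.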
